A study of Bos taurus with 4 samples.

Results

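The piRNAs described here are the small RNA sequences of bovine oocytes that carry the name of 1 of 3 mid-size piRNA clusters, at chr3:29109111-29179021, chr8:24038014-24137000 and chr6:93789006-93860971. They were chosen by the coordinates in their cluster names, and a bracketed note of a mismatch at the end of a name was disregarded. Neither the build nor the strand of these coordinates is stated in the sources used here. The 3 clusters hold 200072 distinct sequences of 2468643 listed in all, and of 2219158 with the name of any piRNA cluster. The chr3 locus has 84188, the chr8 locus 70960 and the chr6 locus 105394. Of these sequences 152081 belong to 1 of the 3 loci, 35512 to a pair of them and 12479 to all 3, so the loci are not independent of one another. Reads of a sequence named for several non-overlapping loci were divided equally among these loci.

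piRNAs are guides of PIWI proteins, a germ-line branch of the Argonaute family. Their precursors are long transcripts of genomic clusters, and many piRNAs match transposons. Primary piRNAs tend to begin with U, which is written T here as in the deposited files. Secondary piRNAs made by the ping-pong cycle tend to carry A at position 10 and overlap the 5′ end of their partner by 10 bases. TDRKH, which has a tudor domain, binds PIWI proteins and takes part in the trimming of piRNA 3′ ends in mice. PIWIL3 is a PIWI protein of mammalian oocytes that mice lack.

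Bos taurus oocytes at the germinal vesicle stage gave both groups: 2 libraries of RNA brought down by an antibody to TDRKH, called TDRKH IP, and 2 libraries made with no antibody, called input. The germinal vesicle stage is the arrest in prophase of meiosis before maturation. The labels give no breed or age. They also do not state whether the replicates are separate pools of oocytes, and p-values then measure only how far these libraries spread, which may be technical. No IP with a control antibody was analysed here, so RNA bound by TDRKH and background of the precipitation cannot be told apart. Counts are shares of a library, so a rise of some RNAs and a loss of others cannot be told apart either.

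The sequences with the most reads at each locus are shown first, since much of each locus is carried by few of them. Capitals mark the first base and base 10, the positions by which primary and secondary piRNAs are told apart.
chr3 sequence 1: TccgtatagTcagagctgtggtctctcca
chr3 sequence 2: TcgaattgtAgtgttggagaagcct
chr3 sequence 3: TtgatttacGggcttccctggtggct
chr3 sequence 4: TcgaattgtAgtgttggagaagcctc
chr3 sequence 5: TcgaattgtGgtgttggagaa
chr8 sequence 1: TcttgttgcGgagaacaggctctagga
chr8 sequence 2: TtttgttgcGgagaacaggctctagga
chr8 sequence 3: TacagatgaGtaaaatgaggcaaagaa
chr8 sequence 4: TtcatgttgAggtttgatagaaaaca
chr8 sequence 5: TtcatgttgAggtttgatagaaaacaa
chr6 sequence 1: TtggaaaagActctgatgctgggagaa
chr6 sequence 2: TgccaatgcAggagacacaagaaat
chr6 sequence 3: TctttgcaaCcctatggactatagcc
chr6 sequence 4: TtctttaccGctagcacctcctggga
chr6 sequence 5: TttgacaccAgggcccaatttcgtgaa
All 15 begin with T, 7 have A at position 10 and 6 have G there, and every sequence shown for the chr8 locus has a purine at that position. Of the 15, 12 were named for 1 locus only, while chr3 sequence 5 was shared by 6 loci, chr6 sequence 2 by 4 and chr6 sequence 3 by 11.

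The TDRKH IP libraries held 11138905 and 11060320 listed reads, against 1079364 and 1354003 in the inputs, so a sequence at the same level rests on far fewer reads in an input than in an IP. Reads of piRNA clusters made up 96.9% and 96.8% of the IPs and 88.8% and 87.8% of the inputs, piRNAs being the defining small RNAs of germ cells such as the labelled oocytes. The 11 marker microRNAs of cumulus and granulosa cells, leukocytes, epithelium, liver and smooth muscle summed to 6.37 and 9.27 RPM in the IPs (reads scaled to 1000000 listed reads of a library) and to 869 and 797 RPM in the inputs, 2 of them were at 0 in both IPs, and their part in the results below was not tested. Of the sums in the inputs, the 1 liver marker gave 435 and 335 RPM, and the 4 markers of cumulus and granulosa cells gave 236 and 283 RPM. Replicate libraries differed beyond counting error: over the sequences of each locus, the chi-square statistic divided by its degrees of freedom was 1.99 to 2.07 between the IPs and 2.30 to 2.37 between the inputs.

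The 3 loci ranked 9, 10 and 11 of 956 loci by the mean of their IP and input levels. They were chosen by coordinates with earlier results of these data known, so this rank is given as a description. The chr3 locus had 6685 and 6554 RPM in the TDRKH IPs, against 5190.5 and 5143 RPM in the inputs. The chr8 locus had 6491 and 6737 RPM in the IPs, against 4408 and 4753 RPM in the inputs. The chr6 locus had 5524 and 5627 RPM in the IPs, against 3989 and 3926 RPM in the inputs. At each locus both IPs lay above both inputs, and in the IPs the chr3 and chr8 loci overlapped in level while the chr6 locus was lower. Per kilobase of cluster, the chr3 locus had the highest level (94.7 RPM per kb in the IPs and 73.9 in the inputs), the chr6 locus followed (77.5 and 55.0) and the chr8 locus, the longest of the 3 at 98987 bases, had the lowest (66.8 and 46.3). Together they gave 1.93% and 1.95% of all piRNA cluster reads in the IPs, against 1.53% and 1.57% in the inputs. The next larger locus, chr24:17793334-17800783, had a mean level of 6019 RPM, close to the 5893 RPM of the chr3 locus, and the next smaller one, chr2:59556283-59565020, had 4455 RPM, close to the 4766 RPM of the chr6 locus. Both of these neighbours are under 10 kb long and had less in the IP than in the input (3520 against 8518 RPM and 3436 against 5474 RPM).

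All 3 loci held a larger share of listed reads in the TDRKH IP than in the input. The log2 change of the chr8 locus was 0.53 ± 0.05 (SE; adjusted p = 5.25e-05), that of the chr6 locus 0.49 ± 0.04 (adjusted p = 5.01e-05) and that of the chr3 locus 0.36 ± 0.04 (adjusted p = 1.01e-04), by edgeR's quasi-likelihood test over 935 loci with Benjamini-Hochberg adjustment. In the same test 66.2% of the 935 loci rose and 4.06% fell. The median log2 change over all loci was 0.36, the change of the chr3 locus was -0.0053 from it on the log2 scale, and the chr8 and chr6 loci stood 0.17 and 0.13 above it. The changes were larger than those of 48.8% (chr3), 76.1% (chr8) and 69.6% (chr6) of all loci. Both the background and the place of the 3 loci in it moved with the reads counted. With sequences of 1 locus only, 138 of 887 loci rose and 72 fell, the median was 0.13, and the chr3, chr8 and chr6 loci, which still passed, stood 0.19, 0.39 and 0.32 above it. With names without a note only, 663 of 905 loci rose and 15 fell, the median was 0.64, and the 3 loci stood 0.10, 0.24 and 0.20 above it. All these calls take all listed reads of a library as its size. Under TMM factors the median over loci moved to 0.0011, the chr3 locus was at -0.0069 (adjusted p = 0.936), the chr8 locus at 0.17 (adjusted p = 0.0863) and the chr6 locus at 0.13 (adjusted p = 0.130), with 48 loci risen and 68 fallen, and DESeq2's own size factors gave 27 risen and 56 fallen. Under these 3 scalings of the full reads the chr8 locus stood 0.16 to 0.17 and the chr6 locus 0.13 above the median.

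The difference between the loci does not depend on the scaling between libraries, since each was tested with the reads of the other as library size. The change of the chr8 locus exceeded that of the chr3 locus by 0.17 on the log2 scale (unadjusted 95% interval 0.045 to 0.30), and that of the chr6 locus exceeded it by 0.14 (0.030 to 0.24). Neither difference passed once p was adjusted over the 935 loci of the fit (edgeR, adjusted p = 0.0708 and 0.0808). In that fit 15.0% of loci differed in change from the chr3 locus. The unadjusted p of the same test was 0.0138 and 0.0176, and an adjustment over the pairs alone, which is less strict, is not given here. With the replicate number as a block both differences passed (edgeR, adjusted p = 0.00124 and 0.0164), although the labels do not give the libraries as pairs. In the fit without a block the difference between the chr8 and chr6 loci was 0.034 (interval -0.086 to 0.15, adjusted p = 0.703), where 22.7% of loci differed from the chr6 locus. The first of these differences passed without TDRKH IP 1 (0.21, adjusted p = 0.0136) and without input 2 (0.23, adjusted p = 0.0416), and not without input 1 (0.11, adjusted p = 0.336) or TDRKH IP 2 (0.13, adjusted p = 0.216).

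Reads were gathered in few families of sequences most of all at the chr8 locus and least at the chr6 locus. Sequences were grouped into families that share their first 18 bases, which gave 30683 families at the chr3 locus, 28125 at the chr8 locus and 38005 at the chr6 locus. Forms that differ by a noted base within these 18, such as chr8 sequences 1 and 2, fall into separate families, so a family is not a single 5′ end of a cluster. The 5 largest families held 40.4% ± 0.214 of the reads of the chr8 locus in the TDRKH IP and 33.7% ± 2.20 in the input (mean ± SD of n = 2 libraries, as in all such values). At the chr3 locus they held 27.7% ± 1.67 in the IP and 26.7% ± 0.482 in the input, and at the chr6 locus 15.7% ± 0.306 in the IP and 13.9% ± 0.832 in the input. The 5 single sequences with the most reads held 16.0% ± 0.770 in the IP and 14.0% ± 2.49 in the input at the chr8 locus, 15.1% ± 0.630 and 13.8% ± 1.57 at the chr3 locus, and 8.26% ± 0.651 and 8.63% ± 1.01 at the chr6 locus. The 100 most abundant sequences held more of each locus in both IPs than in both inputs (48.3% and 47.3% against 36.6% and 40.9% at the chr8 locus). With 2 libraries a group no such difference can pass an exact permutation test, as the smallest two-sided p is 0.33.

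Most sequences of the loci were rare. Over the 4 libraries 49626 of 84188 sequences of the chr3 locus, 43701 of 70960 of the chr8 locus and 62984 of 105394 of the chr6 locus were read once. The IPs listed 50077 and 50873 sequences of the chr3 locus and the inputs 9715 and 11051. Thinned to the 1079364 reads of the smallest library, the IPs kept 11000 and 11190 and the inputs 9715 and 9685. At the chr8 locus the thinned IPs held 8447 and 8794 sequences and the thinned inputs 6918 and 6985, and at the chr6 locus 13444 and 13824 against 11553 and 11659. Each thinned locus was listed with more sequences in both IPs than in both inputs. Thinning matched the listed reads of the libraries and not those of a locus, which stayed 1.28 (chr3), 1.44 (chr8) and 1.41 (chr6) times their input level in the IP.

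The leading sequences did not move alike. On the chr3 locus, sequence 1 had 405 and 315 RPM in the TDRKH IPs, against 323 and 388 RPM in the inputs (log2 change 0.02 ± 0.23 (SE), adjusted p = 0.946 by edgeR over 11786 sequences). Its groups overlapped, and it alone gave 5.44% ± 0.883 of the reads of the locus in the IP and 6.88% ± 0.926 in the input. Sequence 2 had 306 and 314 RPM in the IPs, against 156 and 157 RPM in the inputs, and rose by 0.99 ± 0.23 (adjusted p = 7.45e-04). Its form with 1 more base at the 3′ end, sequence 4, rose by 0.99 ± 0.27 (adjusted p = 0.00253).

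On the chr8 locus, sequence 4 had 133 and 136 RPM in the TDRKH IPs, against 45.4 and 56.1 RPM in the inputs, a log2 change of 1.40 ± 0.27 (adjusted p = 7.46e-05 by edgeR). Sequence 5, which extends it by 1 base, had 104 and 115 RPM in the IPs, against 34.3 and 56.9 RPM in the inputs (1.25 ± 0.29, adjusted p = 5.84e-04). Both rose and their groups did not overlap. The 2 most abundant sequences of the locus differ from each other at base 2 only. Sequence 1 had 359 and 327 RPM in the IPs and 211 and 273 RPM in the inputs (0.50 ± 0.23, adjusted p = 0.0590). Sequence 2 had 323 and 314 RPM in the IPs and 161 and 224 RPM in the inputs (0.72 ± 0.24, adjusted p = 0.0105), which is no test of a difference between them. The call of sequence 2 did not hold without input 1 (adjusted p = 0.0591), TDRKH IP 1 (0.113) or TDRKH IP 2 (0.0991), and sequence 1 passed without input 2 (0.0149).

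On the chr6 locus none of the 5 leading sequences passed. Sequence 1 had 145 and 130 RPM in the TDRKH IPs, against 104 and 109 RPM in the inputs (0.37 ± 0.25, adjusted p = 0.189 by edgeR). Sequence 3, the one shared by 11 loci, had 770 and 734 RPM of whole reads in the IPs, against 493 and 618 RPM in the inputs (0.44 ± 0.22, adjusted p = 0.0779). Both IPs lay above both inputs for each of these, and for sequence 4 the groups overlapped (76.9 and 55.2 against 37.1 and 60.6 RPM). The median log2 change over all 11786 sequences tested was 0.70. Of the 15 leading sequences, 5 lay above that median (2 at the chr3 locus and 3 at the chr8 locus). TMM factors and DESeq2's size factors lower the change of every sequence by a like amount, and the other 10 then had a negative sign. Of the 5, only chr8 sequence 4 still passed, with an adjusted p of 0.0279 (edgeR with TMM factors) and 0.0318 (DESeq2).

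The families also differed in how their 3′ ends were set. The family of chr8 sequence 4 had no dominant length: its forms of 26, 27, 28 and 29 nt held 20.5%, 17.1%, 17.4% and 17.8% of the family in the TDRKH IP, against 18.7%, 18.6%, 20.8% and 17.2% in the input. In the family of chr6 sequence 1 the 27-nt form alone held 77.7% ± 1.86 in the IP and 73.3% ± 4.31 in the input. In the family of chr3 sequence 1 the 29-nt form held 75.4% ± 0.648 in the IP and 83.3% ± 2.40 in the input. In the family of chr3 sequence 2 the 27-nt form held 17.2% and 16.9% in the IPs, against 10.7% and 10.1% in the inputs, so the longest of its common forms had a larger share in both IPs. As a share of the whole locus, the family of chr8 sequence 4 made up 11.0% and 12.0% of the IPs and 7.02% and 7.33% of the inputs, and that of chr3 sequence 2 made up 8.34% and 8.68% against 6.01% and 5.67%. The family of chr3 sequence 1 ran the other way, with 8.33% and 6.67% in the IPs and 10.4% and 10.9% in the inputs.

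The length of the reads differed between the 3 loci. The most common length was 26 nt at the chr6 locus (27.3% ± 0.578 of its reads in the TDRKH IP and 29.5% ± 0.632 in the input) and 27 nt at the chr8 locus (27.0% ± 1.09 and 29.1% ± 1.88). At the chr3 locus 25 nt (20.4% ± 0.390 in the IP and 20.3% ± 1.59 in the input) and 26 nt (21.4% ± 0.249 and 21.6% ± 0.797) were close to each other. The other piRNA cluster reads were also most often 26 nt long (22.7% ± 0.460 in the IP and 26.1% ± 0.508 in the input), with 25 nt next (20.8% ± 0.187 and 21.6% ± 0.424). The chr3 locus had a further peak at 29 nt, with 8.16% and 6.76% in the IPs and 13.0% and 12.0% in the inputs, while the other piRNA cluster reads had 2.25% ± 0.0584 and 2.06% ± 0.142 at that length. In amount, the 29-nt reads of the chr3 locus were at 545 and 443 RPM in the IPs, against 675 and 619 RPM in the inputs, lower in both IPs. Sequence 1 of that locus, which is 29 nt long, gave 405 and 315 RPM of them in the IPs and 323 and 388 RPM in the inputs. Reads of 28 nt or more were scarcest at the chr6 locus, at 6.81% ± 0.134 in the IP and 6.61% ± 0.389 in the input. They made up 14.1% ± 0.0434 and 12.9% ± 1.37 at the chr8 locus, and 15.5% ± 1.25 and 20.6% ± 0.0816 at the chr3 locus. Among the 3 loci, only the chr3 locus had both IPs below both inputs. The other piRNA cluster reads had 10.6% ± 0.280 and 9.88% ± 0.553 of that length. Reads of 18 to 22 nt were at 15.5% and 16.0% of the chr3 locus in the IPs, against 12.9% and 13.5% in the inputs, and at 10.8% to 12.3% of the chr8 and chr6 loci in all 4 libraries. The other piRNA cluster reads had 13.1% and 14.3% of that length in the IPs and 10.8% and 11.1% in the inputs.

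Most reads of each of the 3 loci began with T, and the loci differed at base 10. Reads with a first T were at 87.9% ± 0.410 in the TDRKH IP and 87.1% ± 0.697 in the input at the chr3 locus, at 90.6% ± 0.558 and 88.8% ± 0.266 at the chr8 locus, and at 90.6% ± 0.643 and 89.8% ± 0.728 at the chr6 locus. The other piRNA cluster reads had 88.2% ± 0.569 in the IP and 88.1% ± 0.574 in the input. Base 10 was A in 54.4% ± 0.0553 of the reads of the chr6 locus in the IP and 54.7% ± 0.0355 in the input, in 46.9% ± 0.436 and 43.3% ± 0.981 at the chr3 locus, and in 33.2% ± 0.695 and 30.2% ± 0.529 at the chr8 locus. The other piRNA cluster reads had 41.8% ± 0.436 in the IP and 40.8% ± 0.107 in the input. In every library the order of the 3 loci was the same and their ranges did not overlap. At the chr8 locus G was the most common base 10, with 45.1% ± 0.566 in the IP and 46.8% ± 1.56 in the input, against 16.1% ± 0.211 and 15.7% ± 0.0477 at the chr6 locus. The families of chr8 sequences 1, 2 and 3, which have G there, held 10.3%, 8.72% and 6.77% of that locus in the IP and 10.9%, 7.02% and 6.46% in the input. A at position 10 without a first T, the usual mark of secondary piRNAs, was at 3.48% to 5.63% of reads at each locus in each library. In amount, reads with A at position 10 were at 2120 and 2267 RPM in the IPs and 1346 and 1416 RPM in the inputs at the chr8 locus. None of these differences between IP and input can pass the exact permutation test (smallest p 0.33).

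The high share of A at position 10 at the chr6 locus was larger among the sequences it shares with other loci. It was 64.1% ± 0.421 in the TDRKH IP and 63.7% ± 0.187 in the input for shared sequences, and 45.9% ± 0.439 and 47.3% ± 0.531 for those named for this locus alone. At the chr8 locus shared sequences had 45.1% ± 2.76 in the IP and 46.8% ± 0.711 in the input, and its own had 30.8% ± 1.34 and 26.9% ± 0.339. At the chr3 locus the same values were 49.4% ± 0.0316 and 50.5% ± 0.359 for shared sequences and 45.8% ± 0.617 and 40.4% ± 1.59 for its own. Taken by the sequences of 1 locus only, the chr3 and chr6 loci therefore overlapped at base 10 in the IPs, and the chr8 locus stayed lower.

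The loci shared their sequences unevenly. Sequences named for no other locus made up 83.7% ± 0.156 of the reads of the chr8 locus in the TDRKH IP and 83.8% ± 0.654 in the input, 69.4% ± 0.0402 and 70.9% ± 0.409 at the chr3 locus, and 53.0% ± 0.109 and 54.7% ± 2.51 at the chr6 locus. The other piRNA cluster reads had 75.6% ± 0.503 and 77.8% ± 0.428. Sequences of more than 5 loci made up 25.7% ± 0.524 of the chr6 locus in the IP and 26.3% ± 1.60 in the input, and 8.94% ± 0.301 and 9.27% ± 0.306 of the chr8 locus. By the mean over both groups, the partner with the most shared reads was chr6:110174004-110336024 for the chr6 locus (17.0% ± 0.488 of its reads in the IP and 18.2% ± 1.25 in the input), with chr23:13851174-14138004 close to it (16.8% ± 0.187 and 17.7% ± 0.862). It was that chr23 locus for the chr3 locus (12.5% ± 0.195 and 11.8% ± 1.02) and chr3:90982081-91157012 for the chr8 locus (6.55% ± 0.214 and 6.87% ± 0.115). Among the 3 loci themselves the chr6 and chr3 loci shared the most, 31721 sequences with 7.12% and 6.87% of the reads of the chr6 locus in the IPs, against 6.88% and 7.73% in the inputs. Where both kinds were counted in RPM, shared reads stood at 1.35 (chr3), 1.45 (chr8) and 1.46 (chr6) times their input level in the IP, and reads of 1 locus only at 1.25, 1.44 and 1.37 times.

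Each locus is a set of overlapping cluster names, and at the chr6 locus the names do not nest as their coordinates do. The names chr6:93789006-93860971 and chr6:93789044-93860889 are 71966 and 71846 bases long, and the second lies within the first. Of the reads of the locus, 44.0% ± 0.0650 in the TDRKH IP and 44.4% ± 1.09 in the input carried the outer name only, 27.9% ± 0.259 and 27.8% ± 0.735 carried the inner name only, and 28.1% ± 0.194 and 27.8% ± 0.356 carried both. At the chr8 locus, where the inner name is chr8:24038435-24129155, 91.9% ± 0.148 of the reads in the IP and 91.6% ± 0.172 in the input carried both names, and 1.42% ± 0.0171 and 1.62% ± 0.0742 the inner one only. At the chr3 locus the inner name chr3:29111095-29146018 together with the outer one took 63.9% ± 1.03 of the reads in the IP and 65.6% ± 0.115 in the input, and chr3:29149115-29169796 together with the outer one took 8.29% ± 0.0642 and 8.70% ± 0.185. Most reads of the chr3 locus thus carried the name of the first of these inner intervals, which is 34924 bases long.

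A large part of the reads matched their locus only with a noted difference, and these reads were a smaller share of each locus in the TDRKH IP. A sequence counted as noted when all its names of that locus carried a note, so some noted sequences match another cluster without one. The share of noted reads was 29.8% ± 0.504 in the IP and 47.0% ± 6.06 in the input at the chr3 locus, 35.2% ± 0.271 and 49.6% ± 2.87 at the chr8 locus, and 43.8% ± 0.563 and 56.1% ± 1.30 at the chr6 locus. Both IPs lay below both inputs at each locus. The other piRNA cluster reads showed the like, with 30.6% ± 0.00914 in the IP and 48.1% ± 4.92 in the input. In amount, noted reads were at 1969 and 1977 RPM in the IPs and at 2664 and 2198 RPM in the inputs at the chr3 locus, at 2300.2 and 2362 against 2274 and 2259 RPM at the chr8 locus, and at 2443 and 2444 against 2275 and 2167 RPM at the chr6 locus. Reads without a note stood at 1.70 (chr3), 1.85 (chr8) and 1.80 (chr6) times their input level in the IP. No noted difference lay in the last 2 bases of a sequence at any of the 3 loci. Whether the naming can place a note there is not stated in the sources used here, so no conclusion about 3′ ends is drawn.

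The kinds of noted difference were unevenly spread over the loci. At the chr8 locus C-to-T notes took 18.9% ± 0.501 of all reads in the TDRKH IP and 17.1% ± 1.93 in the input, against 3.06% ± 0.219 and 3.93% ± 0.0899 at the chr3 locus and 8.57% ± 0.256 and 7.84% ± 0.303 at the chr6 locus. Much of this share at the chr8 locus lay in the families of sequences 2 and 3, whose leading forms carry such a note, at 8.72% and 6.77% of the locus in the IP and 7.02% and 6.46% in the input. At the chr3 locus A-to-G notes were the most common kind, with 10.7% ± 0.0148 in the IP and 11.6% ± 0.703 in the input. T-to-C notes at the chr8 locus took 2.54% and 2.57% in the IPs, against 6.63% and 5.67% in the inputs, and G-to-T notes 0.617% and 0.593% against 3.08% and 2.44%. Both of these kinds were lower in both IPs at the chr3 and chr6 loci too. T-to-C notes took 2.99% in the IP and 7.59% in the input at the chr3 locus, and 4.97% and 8.20% at the chr6 locus. G-to-T notes took 1.53% and 3.76% at the chr3 locus, and 1.11% and 2.90% at the chr6 locus. The C-to-T notes lay above both inputs in each IP at the chr8 and chr6 loci, and below both at the chr3 locus. Shares by kind are not given here for the other piRNA cluster reads.

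The 6 noted sequences among the leading 15 are shown here, each below the form that its note implies. The base that differs is in capitals, and each substitution gives the cluster's base, its position from the 5′ end, and the base of the sequence.
chr8, as the cluster: tCttgttgcggagaacaggctctagga
chr8, with C2T: tTttgttgcggagaacaggctctagga
chr8, as the cluster: tacagatgagCaaaatgaggcaaagaa
chr8, with C11T: tacagatgagTaaaatgaggcaaagaa
chr3, as the cluster: tcgaattgtAgtgttggagaa
chr3, with A10G: tcgaattgtGgtgttggagaa
chr6, as the cluster: ttctttaccActagcacctcctggga
chr6, with A10G: ttctttaccGctagcacctcctggga
chr6, as the cluster: tgccaatgcaggagacacaagaGat
chr6, with G23A: tgccaatgcaggagacacaagaAat
chr6, as the cluster: tctttgcaaccctatggactGtagcc
chr6, with G21A: tctttgcaaccctatggactAtagcc
The 2 forms of the first chr8 pair were nearly equal: the C2T form made up 47.3% and 49.0% of both together in the TDRKH IPs, against 43.3% and 45.0% in the inputs. The C11T form made up 71.7% and 71.9% of its pair in the IPs and 74.0% and 70.1% in the inputs, so these groups overlapped. In the other pairs the form that the cluster's sequence implies was a small minority. The chr3 form with A10G made up 98.1% and 96.1% of its pair in the IPs and 98.4% and 98.8% in the inputs, at 527 and 464 RPM against 337 and 364 RPM. The chr6 form with A10G made up 98.5% and 98.9% in the IPs and 97.6% and 97.6% in the inputs, and the chr6 form with G23A 99.3% and 99.6% against 98.9% and 99.3%. The chr6 form with G21A made up 94.3% and 93.3% in the IPs and 95.5% and 96.2% in the inputs. The form with G23A carries the names of 4 loci and matches 2 cluster names outside the 3 loci without a note, while the other noted forms shown match no cluster name exactly.

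Counted one by one, with all listed reads as library size, more sequences of each locus rose than fell. TMM factors and DESeq2's size factors did not keep this order at every locus. Of the sequences of the chr3 locus 590 reached 10 RPM in at least 2 libraries and were tested, of the chr8 locus 387 and of the chr6 locus 702; the rest were too low, and a sequence that reached 10 RPM only in the group where it is high was bound to differ. At an adjusted p under 0.05 (edgeR), 332 rose and 43 fell at the chr3 locus, 227 rose and 13 fell at the chr8 locus, and 353 rose and 49 fell at the chr6 locus. That is 56.3%, 58.7% and 50.3% risen and 7.29%, 3.36% and 6.98% fallen, beside 41.9% risen and 19.9% fallen of all 11786 sequences tested and 43.5% and 17.0% of the 11025 piRNA cluster sequences among them. The median log2 change was 0.94 at the chr3 locus, 1.01 at the chr8 locus and 0.86 at the chr6 locus, against 0.70 over all sequences and 0.73 over all piRNA cluster sequences. The shares over all sequences given above belong to this fit, and those under the settings that follow are not given here. The counts that follow therefore cannot be set against a background. With TMM factors the counts were 57 risen and 56 fallen at the chr3 locus, 38 and 21 at the chr8 locus and 45 and 62 at the chr6 locus, and with DESeq2's size factors 17 and 54, 8 and 17, and 10 and 61. Without TDRKH IP 1 the risen sequences numbered 138, 95 and 128, and without TDRKH IP 2 97, 60 and 75.

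By edgeR, most sequences that fell carried a noted difference, as did most sequences tested at each locus. Calls split by note or by sharing are not given here for all sequences tested. The counts below therefore have no background and do not show a feature particular to these loci. The other piRNA cluster reads also had a lower share of noted reads in the TDRKH IP (30.6%) than in the input (48.1%). At the chr3 locus 42 of 390 noted sequences fell and 1 of 200 without a note did, at the chr8 locus 12 of 258 and 1 of 129, and at the chr6 locus 49 of 481 and 0 of 221. For those 221 sequences of the chr6 locus edgeR gave 0 with a lower level at an unadjusted p under 0.05 too. DESeq2's size factors gave 46 noted and 8 unnoted fallen sequences at the chr3 locus, 12 and 5 at the chr8 locus, and 55 and 6 at the chr6 locus. Of those that rose the counts were 223 of 390 noted and 109 of 200 unnoted ones at the chr3 locus, 151 of 258 and 76 of 129 at the chr8 locus, and 233 of 481 and 120 of 221 at the chr6 locus. Most tested sequences were shared with other loci (548 of 590 at the chr3 locus, 327 of 387 at the chr8 locus and 679 of 702 at the chr6 locus), and of the fallen ones 42 of 43, 13 of 13 and 49 of 49 were.

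The sequences that fell most were single-base forms of sequences shared by many loci. The 3 with the largest decrease at the chr3 locus were also the 3 of the chr8 locus, and those of the chr6 locus were others. They are shown with the first base and base 10 in capitals.
chr3 and chr8, fell, with T20C: TgtgagatgAgtgcaattgcgtggta
chr3 and chr8, fell, with T3C: TgcgagatgAgtgcaattgtgtggta
chr3 and chr8, fell, with A7G: TgtgaggtgAgtgcaattgtgtggta
chr6, fell, with A9C: TctttgtgcCcccatggactgtagcc
chr6, fell, with T6C: TtttccggaActctcttgctttt
chr6, fell, with T3C: TcctgatgaAagtgaaagtggagagt
The first of these had 0.449 and 0.814 RPM in the TDRKH IPs, against 13.0 and 15.5 RPM in the inputs, a log2 change of -4.46. The next in the list fell by 4.28 and 4.10 on the log2 scale, and those of the chr6 locus by 3.54, 3.48 and 3.43. Every one of the 6 was between 10 and 20 RPM in both inputs and under 2 RPM in both IPs. They passed the filter through the inputs alone and were picked for their decrease, so no test of them is given.

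The sequences from which these forms differ by 1 base were looked at after the values of the forms were known.
form 1, of chr3 and chr8: TgtgagatgAgtgcaattgtgtggta
form 2, of chr6 and chr8: TctttgtgaCcccatggactgtagcc
form 3, of chr6 and chr3: TtttctggaActctcttgctttt
form 4, of chr6: TcttgatgaAagtgaaagtggagagt
Form 1 had 391 and 326 RPM in the TDRKH IPs, against 364 and 404 RPM in the inputs (log2 change -0.10 ± 0.22, adjusted p = 0.696 by edgeR), so its groups overlapped while the sequences above fell. Of its 78 possible single-base variants 77 were listed, together at 456 and 401 RPM in the IPs and 599 and 597 RPM in the inputs. These forms were picked because a variant of theirs fell most, so the values are a description. Form 3 had 813 and 754 RPM in the IPs, against 620 and 912 RPM in the inputs, and its single-base variants made up 14.8% and 17.9% of both together in the IPs, against 34.0% and 28.7% in the inputs. For form 4 these shares were 42.7% and 40.4% in the IPs, against 57.6% and 51.4% in the inputs, and for form 2 they were 57.5% and 59.1% against 62.3% and 56.5%. For form 1 they were 53.9% and 55.1% in the IPs, against 62.2% and 59.6% in the inputs. The groups overlapped for form 2 and not for forms 1, 3 and 4.

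The sequences that rose most were shared by 22 to 145 loci and rest on very few reads of the input. The first base and base 10 are again in capitals.
chr3 and chr8, rose: TcatttgaaAagaccctgatg
chr3 and chr8, rose: TcatttgaaAagaccctgat
chr3 and chr6, rose: TttggcaatAaggagttcatgatctg
chr8, rose: TtcatcaagAggctttttact
chr6, rose: TtctaactgTtgcttcctgacttg
chr6, rose: TctttgcgaCcccatgaatcg
The first had 11.2 and 10.8 RPM in the TDRKH IPs, from 244 reads, against 0 and 0.739 RPM in the inputs, from 1 read. That is a ratio of 26.7 with an exact 95% counting interval of 4.76 to 1061. These sequences passed the filter through the IPs alone and were picked for their increase, so no test of them is given. The counting intervals are no test either, as they leave out this choice and the spread of replicate libraries beyond counting error. The first sequence carries the names of 137 loci, and the next sequence in the list, the same start with 1 base fewer, those of 145. The others had 2 or 3 reads in the inputs together and ratios of 9.02 to 14.4, the lowest of them with a counting interval of 3.05 to 44.1.

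Pairs of 5′ ends that overlap by 10 bases were searched by their letters, as a first stretch of 10 bases that is the reverse complement of the first stretch of another sequence at the same locus. No genome of the build of the clusters was used here, so the positions of the pairs are not known. By letters alone a shorter overlap is matched by chance more often, so counts and shares at different overlaps are not level. An excess or lack at 10 bases was not tested. Among sequences named for 1 locus only with at least 10 reads there were 1024 at the chr3 locus, 1057 at the chr8 locus and 791 at the chr6 locus. In these, 9 pairs of starts overlapped by 10 bases at the chr8 locus, 5 at the chr6 locus and 1 at the chr3 locus, against 8, 6 and 0 pairs at 8 bases, 6, 6 and 1 at 9 bases and 1, 0 and 1 at 11 bases. Sequences with such a partner held 22.2% ± 1.25 of these reads of the chr8 locus in the TDRKH IP and 17.0% ± 0.261 in the input, 22.6% ± 0.678 and 25.7% ± 0.0893 at the chr6 locus, and 0.314% ± 0.0153 and 0.277% ± 0.0189 at the chr3 locus. At 9 bases the shares were 18.4% ± 0.233 in the IP and 20.9% ± 1.61 in the input at the chr8 locus and 12.3% ± 0.279 and 9.23% ± 1.06 at the chr6 locus. With shared sequences included, partners at 10 bases covered 56.2% ± 0.120 of the chr6 locus in the IP and 57.7% ± 1.23 in the input, 47.5% ± 1.11 and 52.7% ± 0.284 of the chr3 locus, and 28.8% ± 0.503 and 25.1% ± 0.293 of the chr8 locus. Partners at 9 bases covered 45.1% ± 0.342 in the IP and 43.4% ± 0.286 in the input, 37.6% ± 0.110 and 35.1% ± 0.668, and 20.5% ± 0.316 and 22.6% ± 1.64 of the chr6, chr3 and chr8 loci. At 8 bases the shares were 42.4% and 43.1%, 22.6% and 21.0%, and 24.5% and 20.3%, at 11 bases 12.3% and 14.3%, 16.6% and 22.8%, and 2.98% and 3.28%, and at 12 bases at most 3.02% ± 0.0339.

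The pair with the most reads at each of the chr8 and chr6 loci and the only pair of the chr3 locus are shown, with the 10 overlapping bases in capitals, to compare the amounts of the partners.
chr8, more abundant: TTCATGTTGAggtttgatagaaaaca
chr8, less abundant: TCAACATGAAtcaggcataggct
chr6, more abundant: TTGGAAAAGActctgatgctgggagaa
chr6, less abundant: TCTTTTCCAAggagctggctcttcat
chr3, more abundant: TTCAGTAGTTgtggcccacaggcttagtt
chr3, less abundant: AACTACTGAAtctgctctagagccca
The less abundant partner of chr8 sequence 4 had 2.33 and 2.26 RPM in the TDRKH IPs, against 0 and 2.22 RPM in the inputs, where 1 read is worth 0.926 and 0.739 RPM. The partner of chr6 sequence 1 had 4.49 and 3.98 RPM in the IPs, against 9.26 and 2.22 RPM in the inputs. The 2 sequences of the chr3 pair were closer, at 4.67 and 4.88 RPM in the IPs and 1.85 and 5.17 RPM in the inputs for the first, and at 2.42 and 2.62 RPM against 3.71 and 1.48 RPM for the second. The chr8 and chr6 pairs shown were picked for their reads, and at the chr8 locus not every pair was so uneven. A pair that begins with TTACAGATGA and its complement had 5.93 and 6.51 RPM in the IPs against 5.56 and 1.48 RPM in the inputs for the first, and 4.04 and 4.70 RPM against 5.56 and 3.69 RPM for the second.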

How the data were processed

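Small RNAs of 2 TDRKH IP and 2 input libraries were analysed. RNA extraction (TRIZOL), library kit (NEXTflex Small RNA-Seq Kit V3) and single-end NextSeq sequencing are as per the labels. The deposited files give whole-number read counts of distinct sequences of 18 to 36 nt with their unitas names. For the aligner, the unitas version and the genome build, the sources used here give nothing. The members, lists and tests were chosen with earlier results of these data known. The 1159 piRNA cluster names were merged into 956 loci, and read counts were divided equally among the loci of a sequence and rounded. RPM are reads scaled to 1000000 listed reads, and 3 reads correspond to 0.269 and 0.271 RPM in the IPs and 2.78 and 2.22 RPM in the inputs. Intervals and floors cover counting error only, and PCR copies were not removed here.

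Loci passing filterByExpr and sequences with at least 10 RPM in 2 libraries were tested with edgeR 4.0.16 (R 4.3.3) by its quasi-likelihood test, with the listed total as library size, Benjamini-Hochberg adjustment over all of them and a threshold of 0.05. Standard errors come from the change and the F statistic. Named sequences are the 5 with the most reads per locus (reads divided among loci) and, in each direction, the 3 with the largest significant change among those whose groups did not overlap. Alternatives were other scalings, DESeq2 1.42.0, other filters, sequences of 1 locus, names without a note, lengths of 24 to 32 nt, leaving out the leading sequence or a library, and the replicate number as a block. The fits were run on simulated counts with 200 changed items in both directions and the same spread for every item. Those settings are simpler than the data, so they are no check of the calls above. Tables were made with Python 3.11.15, numpy 2.4.6, pandas 2.3.3 and scipy 1.17.1.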

Additional observations from a re-analysis of the deposited data

How the results depend on the processing

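The log2 changes of the 3 loci kept their direction and passed under all alternatives but 2 scalings. TMM factors gave -0.0069 (chr3), 0.17 (chr8) and 0.13 (chr6), and DESeq2's own size factors gave -0.011, 0.16 and 0.13, none of them past the threshold, since both set the median change over loci near 0. With microRNA reads as library size the changes were 5.12, 5.29 and 5.25. The numbers of the libraries were not given as pairs by the labels. Their deviations from the group means correlated at 0.162 over 935 loci, and a replicate block gave changes of 0.36, 0.53 and 0.49, and 300, 208 and 319 risen sequences at the chr3, chr8 and chr6 loci. The differences between loci, whose alternatives were chosen after seeing the data, passed with the replicate block (chr8 over chr3 0.17, adjusted p = 0.00124; chr6 over chr3 0.14, adjusted p = 0.0164), and chr6 over chr3 passed for 24 to 32 nt (0.20, adjusted p = 0.0395). Leaving out 1 library gave 0.11 to 0.23 for chr8 over chr3, 0.11 to 0.16 for chr6 over chr3 and -0.029 to 0.10 for chr8 over chr6, the negative value without input 1. The cause of these shifts was not tested.

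Risen and fallen sequences numbered 57 and 56 (chr3), 38 and 21 (chr8) and 45 and 62 (chr6) with TMM factors. DESeq2's size factors gave 17, 8 and 10 risen. Shares over all sequences are not given here for these factors, for sequences of 1 locus only or for fits without a library. With a filter of 1 RPM in 2 libraries 578 rose and 418 fell of 3998 tested at the chr3 locus, 376 and 195 of 2587 at the chr8 locus and 643 and 496 of 4814 at the chr6 locus. That is 14.5%, 14.5% and 13.4% risen and 10.5%, 7.54% and 10.3% fallen, beside 10.4% and 19.6% of all 94522 sequences then tested. Among sequences of 1 locus only, 20 rose and 1 fell of 42 (chr3), 33 rose and 0 fell of 60 (chr8) and 9 rose and 0 fell of 23 (chr6) by edgeR, with 0 fallen at an unadjusted p under 0.05 and 0 by DESeq2 at the last 2. Leaving out 1 library gave 97 to 319, 60 to 222 and 75 to 347 risen.

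The difference of the first-T share (TDRKH IP minus input, in percentage points) was -8.59 (chr3), -8.69 (chr8) and -7.81 (chr6) with each distinct sequence counted once and -0.836, 0.0115 and -0.927 for names without a note. That of A at position 10 was -8.06, -5.06 and -7.20 with each sequence once, 5.47, 3.89 and -1.40 for sequences of 1 locus only, 4.41 (chr8) and -1.56 (chr6) for names without a note, and -0.176 (chr6) without the leading sequence. The mean length moved to -0.158, -0.180 and -0.134 nt with each sequence once. The IP lists are deeper, and these values were not thinned. TMM factors lower the change of every sequence by a like amount, so 10 of the 27 named sequences, those of the smallest positive change, turned negative: chr3 sequences 1, 3 and 5 (-0.66, -0.080, -0.18), chr8 sequences 1 and 3 (-0.17, -0.23) and the 5 of the chr6 locus (-0.31, -0.19, -0.24, -0.24, -0.25). With DESeq2's size factors these were -0.64, -0.051, -0.16, -0.15, -0.21, -0.28, -0.16, -0.21, -0.21 and -0.23. The chr3 sequence 1 also turned with piRNA cluster reads as library size (-0.12), without input 1 (-0.11) and without TDRKH IP 1 (-0.17), and leaving out 1 library gave -0.17 to 0.19. The depth of the inputs limits what can be said of any sequence near 10 RPM there.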
